A study of Mus musculus with 28 samples.

Results

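The Gimap genes encode the GTPases of the immunity-associated protein family, which sit on intracellular membranes of lymphocytes and are known for their part in the survival of resting T and B cells. The family was taken here as the 8 protein-coding mouse genes *Gimap1*, *Gimap3*, *Gimap4*, *Gimap5*, *Gimap6*, *Gimap7*, *Gimap8* and *Gimap9*, found by symbol among the 53801 rows of the expression table. All 8 symbols were present. The measured cells were regulatory T (Treg) cells, a CD4 T cell subset that restrains immune responses, sorted as TCR+ CD4+ CD25hi CD127lo cells from the spleen or the tumor of mice carrying CT2A, a mouse glioblastoma (GBM) line implanted in the forebrain. All animals bore tumors and received 4 doses, 3 days apart and at 250 µg per mouse, of either the isotype control IgG2a or antibodies to the checkpoint receptor PD1 and the co-stimulatory receptor GITR (αPD1 + αGITR), and tissues were taken 2 days after the last dose. The study's methods name C57BL/6 mice as wild-type hosts and a CT2A line that carries GFP and GLUC reporters, while the age of the animals behind single libraries was not given in the sources used here. According to the series' design each spleen or tumor came from a different mouse, and splenic Treg cells came from tumor-bearing mice in both treatment groups. The study's legend for the sequencing gives fewer animals than there are labelled splenic samples.

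The comparisons used 27 Smart-Seq2 libraries, namely 7 splenic IgG2a, 8 splenic αPD1 + αGITR, 5 GBM IgG2a and 7 GBM αPD1 + αGITR libraries. Values are transcript abundances scaled to a fixed total per library (TPM), and read depth per library is unknown. *Cd4*, *Cd3e* and *Foxp3*, the transcription factor that defines Treg cells, were above 0 TPM in every library, and the sum of the 2 CD8 T cell markers stayed between 0.520 and 36.6 TPM. The number of genes above 1 TPM ranged from 7702 to 17460. The 10 features that were most abundant over the series, among them CT010467.1, Gm26870, Gm10800, mt.Rnr2 and *Actb*, took 31.9% to 78.3% of a library's TPM. Markers of macrophages and microglia summed to more than 1000 TPM in 3 GBM libraries, which were IgG2a replicate 79_a and αPD1 + αGITR replicates 73_a and 74_a.

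In these cells loss of *Gimap5*, which sits on lysosomes, is known to shorten the life of peripheral T cells, and *Gimap1* is needed for mature T and B cells to persist. *Gimap3* is a close relative of *Gimap5* found on mitochondria and other membranes, *Gimap4* is linked to the pace of T cell death, and *Gimap6* binds the autophagy protein Gabarapl2. *Gimap7* can pair with other family members and stimulate their GTP hydrolysis, and *Gimap8* carries more than one GTPase domain.

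The 8 genes form 1 cluster on mouse chromosome 6 between positions 48647234 and 48770851 of GRCm38 (mm10), a span of 123.6 kb. *Gimap8*, *Gimap9*, *Gimap4*, *Gimap7*, *Gimap1* and *Gimap5* lie on the plus strand, and *Gimap6* and *Gimap3* on the minus strand. The nearest 3 protein-coding genes on the side of *Gimap8* (*Gm44965*, *Zfp775* and *AI854703*) and on the side of *Gimap3* (*Tmem176b*, *Tmem176a* and *Aoc1*) averaged between 0.385 and 7.95 TPM over the 27 libraries, whereas the 8 members averaged between 11.02 and 567 TPM. Of the other rows inside the cluster, the antisense RNA *Gimap1os* and the readthrough gene *Gm28053* averaged 11.1 and 13.8 TPM. The pseudogene *Gm44262* and the noncoding *Gm44226* averaged 1.55 and 2.52 TPM. *Gimap1os* shares 1107 of the 3073 exonic bases of *Gimap1*, and Smart-Seq2 does not record the strand, so reads from that stretch cannot be assigned to either gene. *Gm28053* shares exons with *Gimap7*, *Gimap1* and *Gimap5*. *Gimap3* and *Gimap5* are near-copies over part of their length: of all 36-base words in the GENCODE transcripts, 11.4% of those of *Gimap3* also occur in *Gimap5*, and 6.94% of those of *Gimap5* in *Gimap3*. No such word was shared between any other members. Of the *Gimap7* words 1.98% also occur in *Gm28053*. The values of *Gimap1*, *Gimap3*, *Gimap5* and, for this shorter stretch, *Gimap7* are uncertain to the extent that reads were split between these genes.

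The sequences upstream of 4 members are shown because the results turn on them: *Gimap4*, *Gimap5* and *Gimap7* passed the test between tissues after treatment, and *Gimap1* is the most abundant member. Each is the stretch from 250 to 51 bases before the start given by RefSeq (GRCm38.p6), 200 bases written 5′ to 3′ on the plus strand, with GGAA or its reverse complement, the core letters that ETS family factors bind, in capitals. The windows are chr6:48684328-48684527 for *Gimap4*, chr6:48745947-48746146 for *Gimap5*, chr6:48718371-48718570 for *Gimap7* and chr6:48738797-48738996 for *Gimap1*.
Gimap4: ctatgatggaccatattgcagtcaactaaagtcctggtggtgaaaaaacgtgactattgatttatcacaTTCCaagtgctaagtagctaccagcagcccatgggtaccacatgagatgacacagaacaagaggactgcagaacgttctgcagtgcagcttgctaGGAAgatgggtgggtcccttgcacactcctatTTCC
Gimap5: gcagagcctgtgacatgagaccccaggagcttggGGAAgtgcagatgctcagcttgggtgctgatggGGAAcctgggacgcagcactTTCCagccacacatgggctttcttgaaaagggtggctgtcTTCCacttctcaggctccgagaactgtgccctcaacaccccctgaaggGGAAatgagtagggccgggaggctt
Gimap7: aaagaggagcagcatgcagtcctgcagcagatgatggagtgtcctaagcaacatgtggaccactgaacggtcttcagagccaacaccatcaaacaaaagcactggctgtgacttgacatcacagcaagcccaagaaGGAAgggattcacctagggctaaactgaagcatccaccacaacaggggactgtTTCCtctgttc
Gimap1: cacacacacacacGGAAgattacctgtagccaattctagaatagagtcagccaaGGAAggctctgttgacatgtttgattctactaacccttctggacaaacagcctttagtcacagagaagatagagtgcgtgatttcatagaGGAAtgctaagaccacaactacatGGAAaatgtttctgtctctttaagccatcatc
The *Gimap1* window overlaps an exon of the antisense *Gimap1os*. The letters occur 3 times upstream of *Gimap4*, 5 times upstream of *Gimap5*, 2 times upstream of *Gimap7* and 4 times upstream of *Gimap1*. They are common, since 89.2% of 32851 RefSeq windows of this length hold at least 1 match and the median window holds 2. The 6 letters TGTGGT, to which RUNX factors bind, occur once each upstream of *Gimap4*, *Gimap7* and *Gimap1* (on the minus strand, sharing no base with the capitals) and not upstream of *Gimap5*. The 8 members have 9 windows, since *Gimap8* has 2 that overlap. Over all member windows the letters TGTGGT occur in 3 of 9, against 11.6% of all windows. Of the other letters searched on both strands, CACCC (KLF factors) occurs in 5 of the 9 member windows (44.4% of all windows). The 2 *Gimap8* windows hold the same CACCC, so these windows belong to 4 members. TGTTTA (FOXO factors) occurs in 1 member window (10.3% of all) and TATAAA (the TATA box) in 1 (9.1%). The windows of *Gimap4*, *Gimap5*, *Gimap7* and *Gimap1* hold 2, 3, 1 and 2 CpG dinucleotides, against a median of 4 over all windows. These matches describe letters and do not show binding.

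Every member was detected in every library: all 216 member values were above 0 TPM. The order of the levels was similar in the 4 groups and is given here in TPM, which is adjusted for transcript length. *Gimap1* had the highest median over all libraries, 549 TPM (range 41.3 to 1326), followed by *Gimap3* at 295 TPM (84.9 to 675). *Gimap4* followed at 113 TPM, *Gimap6* at 88.1 TPM, *Gimap5* at 56.1 TPM, *Gimap7* at 46.7 TPM, *Gimap9* at 20.1 TPM and *Gimap8* at 8.57 TPM. *Gimap1* was the highest member in 21 of 27 libraries, *Gimap3* in 4 and *Gimap4* in 2. Neighbours in the middle of the order were not separated: *Gimap6* exceeded *Gimap4* in 4 of 8 splenic αPD1 + αGITR libraries, and *Gimap7* exceeded *Gimap5* in 3 of 5 GBM IgG2a libraries. *Gimap3* exceeded *Gimap4* in all 7 splenic IgG2a and all 7 GBM αPD1 + αGITR libraries, in 7 of 8 splenic αPD1 + αGITR libraries (not in replicate 74_a) and in 4 of 5 GBM IgG2a libraries (not in tumor_369_a).

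**Figure D1:**
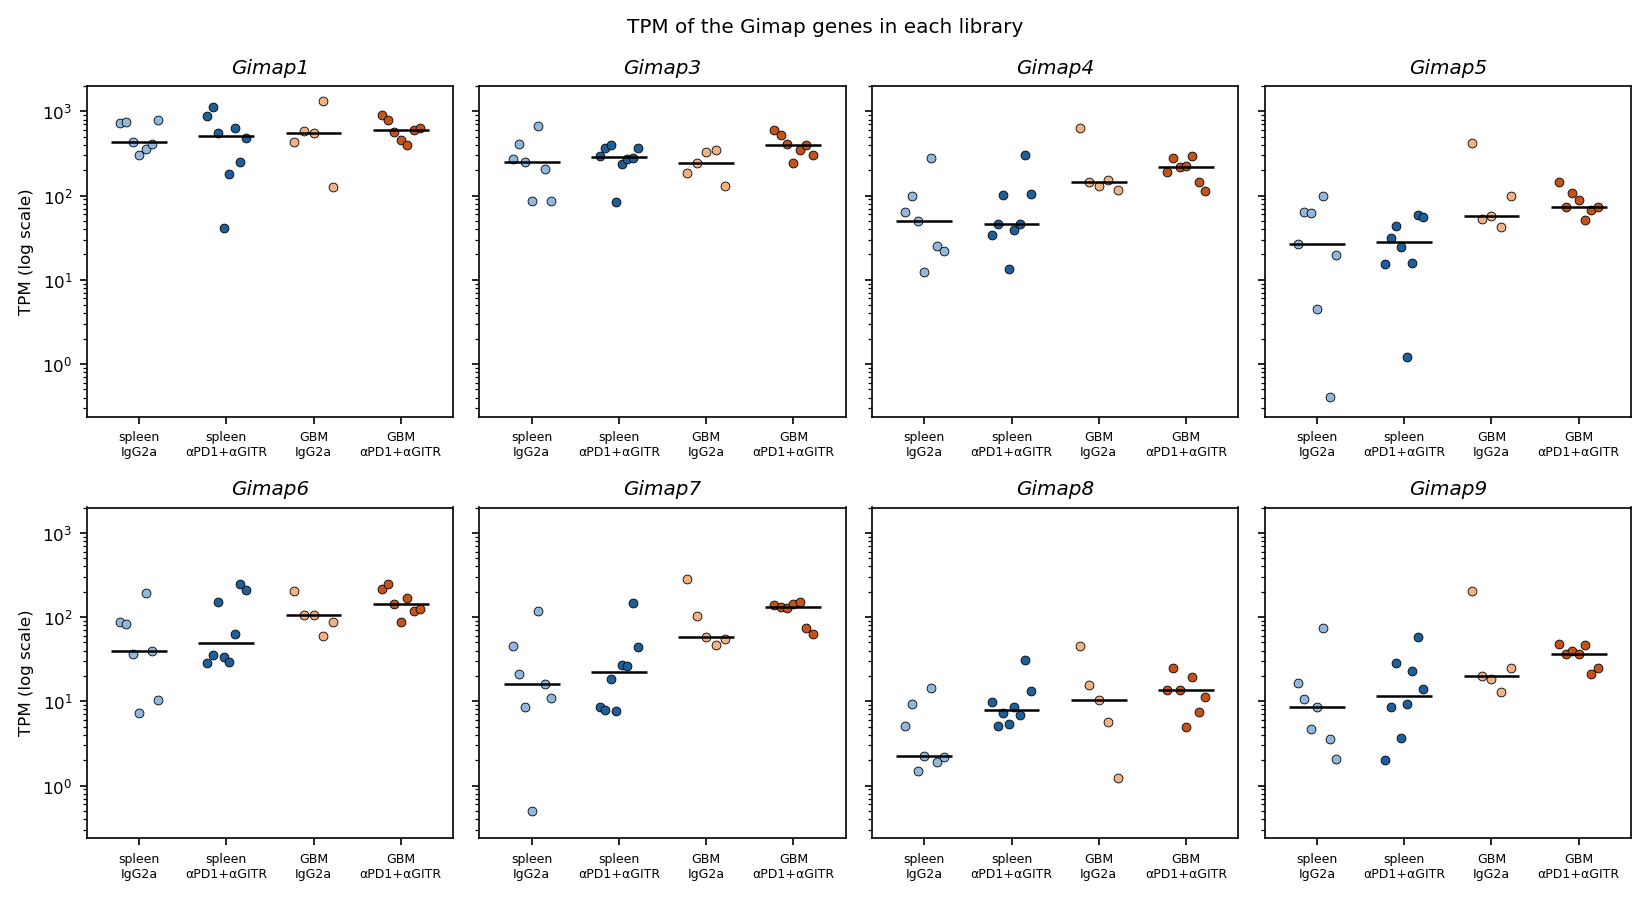
TPM of each Gimap gene on a log axis, with 1 point per library, a bar at the group median, and splenic groups in blue and GBM groups in orange. *Gimap1* and *Gimap3* lie at similar heights in the 4 groups, while *Gimap4* to *Gimap9* have higher medians in both GBM groups than in both splenic groups, with points that overlap those of spleen.

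The first comparison asked how GBM Treg cells differ from splenic Treg cells in IgG2a-treated mice. *Gimap7*, *Gimap5* and *Gimap4* had the highest differences of the family, but no member passed the adjusted threshold. *Gimap1* and *Gimap3* were nearly level between the tissues. *Gimap7* was listed at 282, 103, 58.5, 46.7 and 54.7 TPM in GBM replicates tumor_369_a, 76_a, 77_a, 78_a and 79_a. In spleen its lowest value was 0.500, its median 16.2 and its highest 117 TPM. All GBM libraries but 1 fell within the splenic range, and 6 of 7 splenic libraries lay below all GBM libraries. The log2 fold change of *Gimap7* on the log2(TPM + 1) scale was 2.37 (standard error 0.89, limma p = 0.0123, adjusted p = 0.334), and the two-sided exact permutation p was 0.0316.

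*Gimap4* was listed at 632, 144, 131, 155 and 117 TPM in the same GBM replicates, and at 12.4, 50.2 and 278 TPM as lowest, median and highest in spleen. Replicate tumor_369_a of GBM stood far above the others, and again 6 of 7 splenic libraries lay below all GBM libraries. The log2 fold change was 1.91 (standard error 0.80, limma adjusted p = 0.409, exact permutation p = 0.0316). *Gimap5* was listed at 424, 53.1, 57.3, 41.8 and 98.3 TPM in GBM and at 0.410, 26.8 and 97.6 TPM as lowest, median and highest in spleen. For *Gimap5* the difference on the log2 scale was 2.09 (standard error 0.94, limma adjusted p = 0.446, exact permutation p = 0.0985), and 1.44 without splenic replicate 79_c, which held its lowest value. The ranges of the tissues overlapped for this gene as well.

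*Gimap1* was listed at 439, 591, 549, 1326 and 126 TPM in GBM, and at 302, 438 and 788 TPM as lowest, median and highest in spleen. The highest and the lowest of these libraries were both GBM libraries. Its log2 fold change was -0.09 (95% confidence interval -1.55 to 1.36), and that of *Gimap3* was 0.05 (-1.42 to 1.53), so differences of more than 2-fold in either direction lie within both intervals. *Gimap6*, *Gimap9* and *Gimap8* had log2 fold changes of 1.34, 1.61 and 1.09, with limma adjusted p between 0.559 and 0.673. Of the 8 members tested, 0 passed an adjusted p of 0.05, where 0.488% of 7380 genes were called higher and 0.0813% lower. At an unadjusted p under 0.05, 3 of 8 members were higher, where 7.63% of genes were. The members' median log2 fold change was 1.48, and that of all genes tested was 0.48. *Gimap8* passed the filter on low values only through the GBM group, and it was not tested without replicate tumor_369_a, a fit in which the log2 fold change of *Gimap9* was 0.94 (limma adjusted p = 0.619). Without replicate 79_a, whose macrophage markers exceeded 1000 TPM, the log2 fold change of *Gimap7* was 2.52 (limma adjusted p = 0.410) and no member was called.

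The same question was asked of mice given αPD1 + αGITR. Here *Gimap7*, *Gimap4* and *Gimap5* were higher in GBM Treg cells and passed the adjusted threshold, and no member was lower. *Gimap7* ranged from 63.3 over a median of 132 to 149 TPM in the 7 GBM libraries, and from 7.65 over 22.3 to 146 TPM in the 8 splenic libraries. Replicate 74_a was the only splenic library inside the GBM range. The GBM mean was 119 ± 34.8 TPM (SD, n = 7). The splenic mean was 35.7 ± 46.1 TPM (SD, n = 8), which gives a ratio of 3.33. The log2 fold change was 2.33 (standard error 0.57, limma adjusted p = 0.0107, exact permutation p = 0.00264).

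*Gimap5* ranged from 51.3 over 73.7 to 144 TPM in GBM and from 1.2 over 27.9 to 59.2 TPM in spleen. All but 1 of the GBM libraries (6 of 7) lay above every splenic library. The log2 fold change was 1.86 (standard error 0.60, limma adjusted p = 0.0373, exact permutation p = 0.00202). *Gimap4* ranged from 113 over 216 to 296 TPM in GBM and from 13.6 over 45.9 to 303 TPM in spleen. The highest value was in splenic replicate 74_a, and the other 7 splenic libraries lay below all GBM libraries. The log2 fold change was 1.76 (standard error 0.54, limma adjusted p = 0.0319, exact permutation p = 0.00653).

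The other 5 members did not pass. *Gimap9* had a log2 fold change of 1.45 (95% confidence interval 0.24 to 2.66, limma adjusted p = 0.0755) and *Gimap6* of 1.11 (-0.01 to 2.23, adjusted p = 0.128). *Gimap1* ranged from 395 over 596 to 915 TPM in GBM and from 41.3 over 513 to 1112 TPM in spleen, so that spleen held both extremes, and its log2 fold change was 0.72 (-0.43 to 1.87, limma adjusted p = 0.316). *Gimap3* ranged from 244 over 402 to 596 TPM in GBM and from 84.9 over 286 to 402 TPM in spleen, and its log2 fold change was 0.55 (-0.32 to 1.42, limma adjusted p = 0.309). *Gimap8*, the least abundant member, had a log2 fold change of 0.37 (-0.73 to 1.46). The count of 3 of 8 stands beside 15.8% of 7506 genes called higher and 1.61% called lower. The members' median log2 fold change was 1.28 and that of all genes was 0.95, so most genes were higher in GBM libraries on this scale.

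Rescaling moved that background and the calls. With TMM-type factors the median of all genes fell to 0.22 and with quantile normalization to 0.15, and under each *Gimap7* was the only member called, with log2 fold changes of 1.52 and 1.71. The balance of calls over all 7506 genes turned as well, from 1189 higher and 121 lower to 262 higher and 337 lower with TMM-type factors and to 443 higher and 651 lower with quantile normalization. With TMM-type factors those of *Gimap1*, *Gimap3* and *Gimap8* turned to -0.12, -0.29 and -0.39. *Gimap7* was called without each of the 15 libraries in turn, whereas *Gimap4* and *Gimap5* were each called in 7 of these 15 fits. No member was called without a filter on low values (*Gimap7* adjusted p = 0.0672 by limma), where 244 of 42667 genes were higher. None was called with libraries of the same label number averaged (*Gimap7* log2 fold change 1.65, limma adjusted p = 0.124), where 244 of 7458 were higher. With the share of the 10 most abundant features as a covariate, or the replicate name as a block, no member was called either (both given below). Without GBM αPD1 + αGITR replicates 70_a, 70_b, 72_a or 73_a, or splenic replicate 70_a, *Gimap7* alone was called. In these fits 549 to 655 genes of the table were higher. Without splenic replicate 74_a the count rose to 4, with *Gimap9* added, where 1573 of 7500 genes were higher. Leaving out the 2 GBM libraries of this comparison that exceeded 1000 TPM of macrophage markers left 347 of 7514 genes higher. There 1 member was called, *Gimap7* with a log2 fold change of 2.39 (limma adjusted p = 0.0421).

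**Figure D2:**
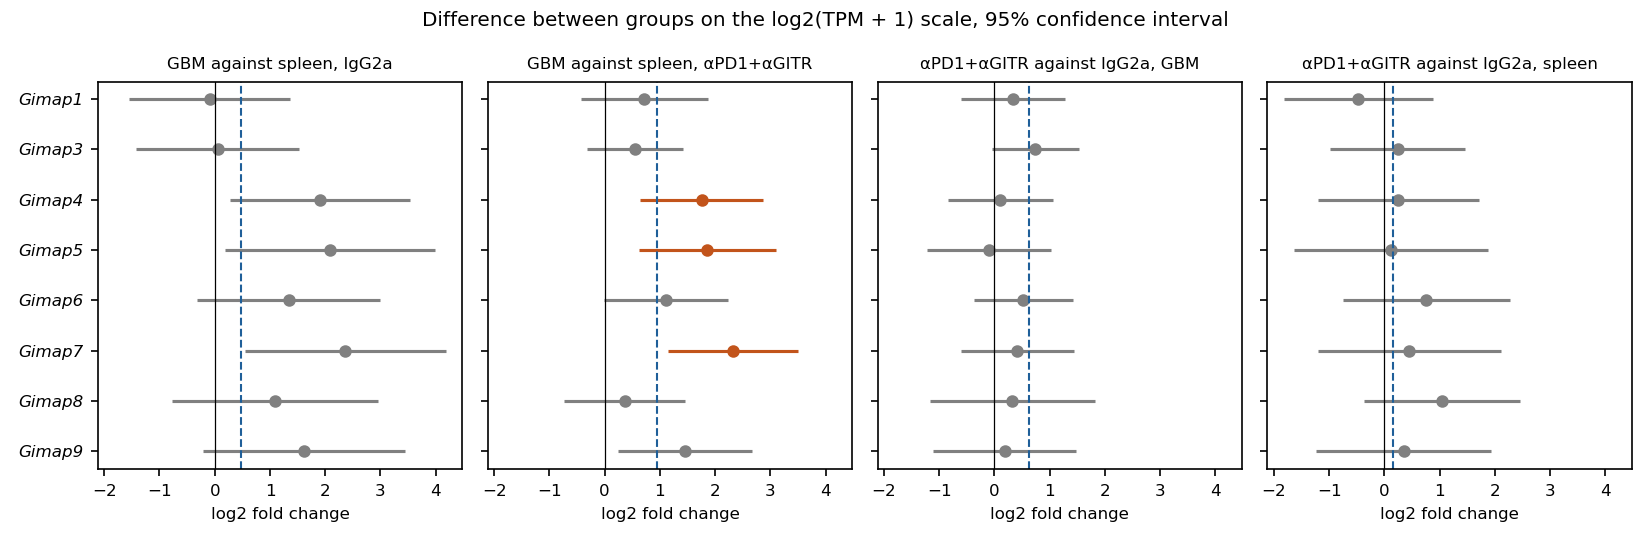
Log2 fold change of each Gimap gene on the log2(TPM + 1) scale in the 4 comparisons, with 95% confidence intervals from limma, orange where the adjusted p was under 0.05, and a dashed line at the median of all genes tested. The 3 orange members are *Gimap4* (1.76), *Gimap5* (1.86) and *Gimap7* (2.33) between tissues under αPD1 + αGITR.

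Treatment was compared within each tissue. In GBM Treg cells no member passed the test between αPD1 + αGITR and IgG2a. The log2 fold changes ran from -0.10 for *Gimap5* to 0.74 for *Gimap3*, and the median of the members was 0.33 against 0.62 for all genes. Single libraries and the scaling set the sign of several of these values. Without replicate tumor_369_a that of *Gimap5* was 0.46, and without replicate 79_a those of *Gimap1*, *Gimap4* and *Gimap8* were -0.13, -0.06 and -0.24. With TMM-type factors, which moved the median of all genes to 0.055, those of *Gimap1*, *Gimap4*, *Gimap6*, *Gimap7*, *Gimap8* and *Gimap9* were between -0.59 and -0.17, and that of *Gimap3* was 0.04. *Gimap3* was listed at 184, 245, 330, 350 and 131 TPM in the IgG2a replicates tumor_369_a, 76_a, 77_a, 78_a and 79_a, against 244 to 596 TPM after treatment. In the treated group 4 of 7 libraries lay above every IgG2a library. Its limma adjusted p was 0.249 and its exact permutation p was 0.0354, 1 of 32 such tests on members, none of them adjusted. For *Gimap4*, *Gimap5*, *Gimap7*, *Gimap8* and *Gimap9* the highest of all GBM values was in IgG2a replicate tumor_369_a. No member was called (0 of 8), also at an unadjusted p under 0.05. Of all 7848 genes tested with limma, 0 were called, which is 0%, 22.3% had an unadjusted p under 0.05, and an ordinary linear model called 1. Library weights called 134 genes higher and 129 lower, and the number of detected genes as a covariate 53 higher and 26 lower, in each case with no member among them.

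In splenic Treg cells the log2 fold changes with treatment ran from -0.47 for *Gimap1* to 1.05 for *Gimap8*, and 0 of 8 members were called. *Gimap8* ranged from 1.48 over 2.27 to 14.5 TPM under IgG2a and from 5.05 over 7.92 to 31.0 TPM after treatment, and its groups overlapped although 5 of 7 IgG2a libraries lay below all treated ones. Its limma adjusted p was 0.9997 and its exact permutation p was 0.0415. *Gimap8* passed the filter on low values here only through the treated group, whose mean was 10.9 TPM. Of 6634 genes tested with limma 0 were called, which is 0%, and 2.53% had an unadjusted p under 0.05. The ordinary linear model and library weights called 0 as well, and quantile normalization called 1, which was no member.

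Whether the difference between tissues changed with treatment was tested as an interaction over the 4 groups. The members' values, GBM treatment difference minus splenic treatment difference, ran from -0.73 for *Gimap8* to 0.81 for *Gimap1*, and that of *Gimap7* was -0.03 (95% confidence interval -2.15 to 2.08). With library weights the value of *Gimap1* turned to -0.12 and that of *Gimap7* to 0.96, and *Gimap7* changed sign in 14 of 40 alternatives. No member was called (limma adjusted p from 0.737 to 0.992, 0 at an unadjusted p under 0.05), where 0 of 8687 genes (0%) passed the adjusted threshold and 12.2% an unadjusted p under 0.05. The ordinary linear model and library weights called 0 genes. The calls under αPD1 + αGITR and their absence under IgG2a are thus not shown to differ.

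The make-up of the family within a library is a measure that does not depend on the scale of the library. *Gimap1* and *Gimap3* together held more than 50% of the family's summed TPM in 24 of 27 libraries. Their share was 57.2%, 80.9% and 92.9% as lowest, median and highest in the splenic IgG2a group, and 38.5%, 75.8% and 92.3% in the splenic αPD1 + αGITR group. In GBM it was 25.8%, 65.5% and 83.9% under IgG2a, and 50.4%, 62.1% and 69.7% after αPD1 + αGITR. The lowest share was in GBM IgG2a replicate tumor_369_a, and the ranges of the groups overlapped. The median share of *Gimap7* was 1.44% and 2.92% in the splenic groups and 8.09% and 6.29% in the GBM groups, given in the order IgG2a then αPD1 + αGITR. These shares are a description and were not tested.

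**Figure D3:**
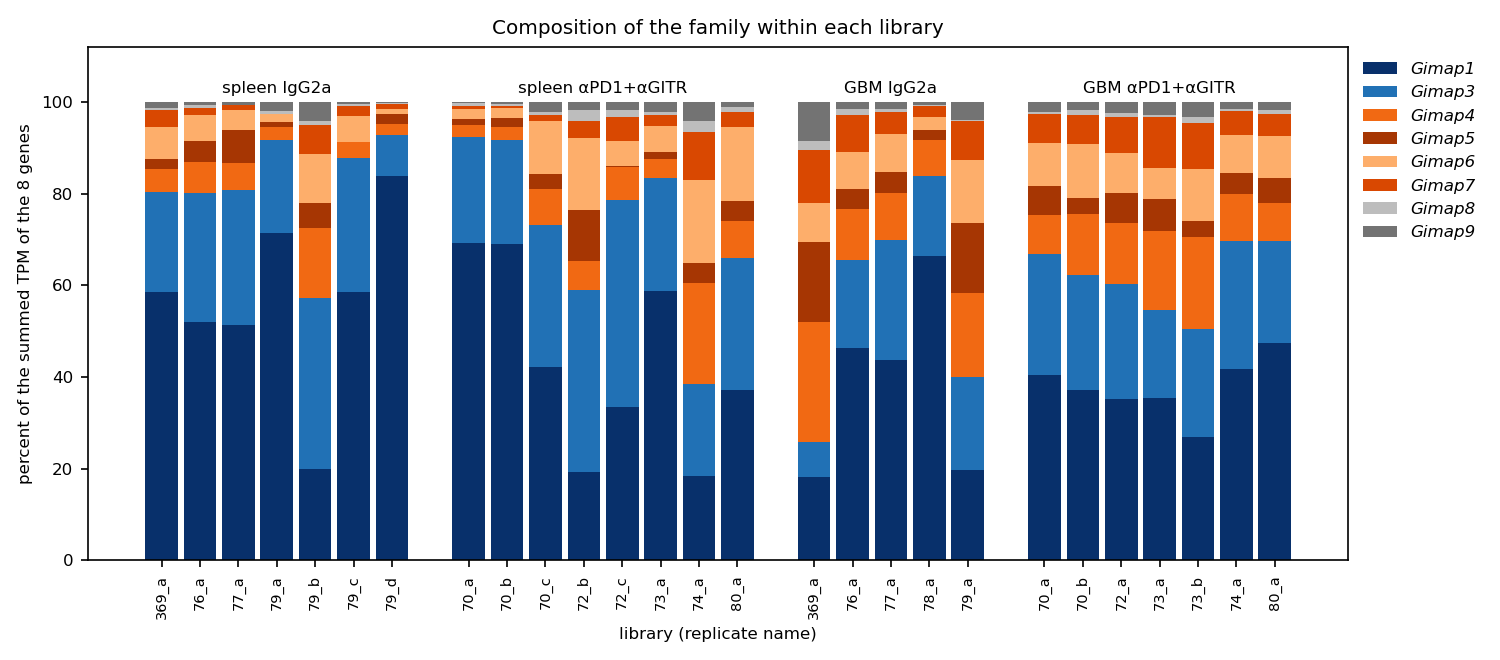
Percent of the summed TPM of the 8 Gimap genes held by each gene, with 1 bar per library, ordered by group and labelled with the replicate name. Blue (*Gimap1* and *Gimap3*) makes up a median of 80.9% and 75.8% in the splenic groups and 65.5% and 62.1% in the GBM groups.

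The members differed in how far they varied together among libraries. After subtracting each group's mean on the log2 scale, *Gimap4* and *Gimap6* had the highest correlation of the 28 pairs over 27 libraries (Pearson r = 0.86, Spearman rho = 0.82). *Gimap4* with *Gimap7* (r = 0.86), *Gimap6* with *Gimap7* (r = 0.83) and *Gimap4* with *Gimap9* (r = 0.83) followed. *Gimap1* stood apart, with r between -0.05 and 0.19 against *Gimap4* to *Gimap9*, and r = 0.55 with *Gimap3*. The near-copies *Gimap3* and *Gimap5* had r = 0.33. The genes outside the family whose profile was most like the members' mean, of 8679 compared, were *Trac* (r = 0.91), the constant segment of the T cell receptor α chain, the leukocyte tetraspanin *Cd53* (0.91), the checkpoint receptor *Tigit* (0.91), *Arl6ip5* (0.91) and *Lck* (0.90), the proximal kinase of the T cell receptor. These correlations describe libraries that share 1 normalization and whose depth is unknown.

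**Figure D4:**
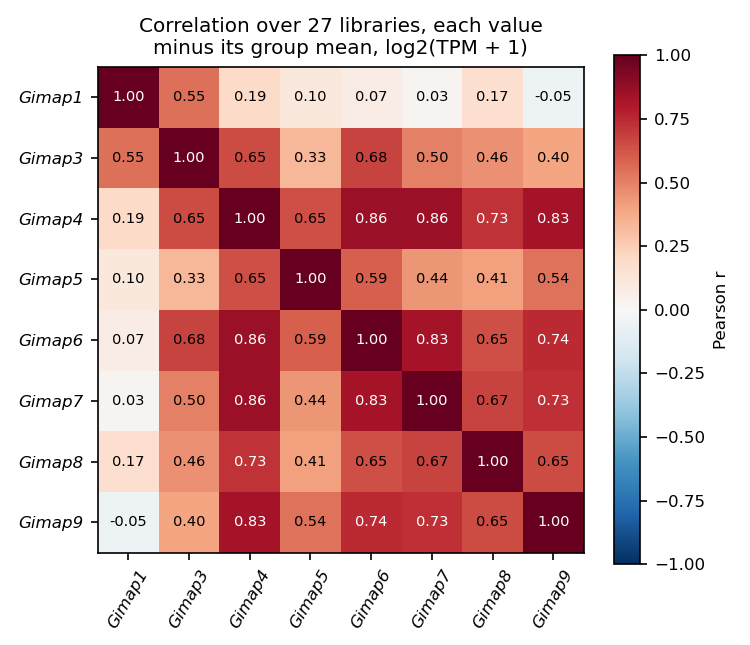
Pearson correlation of each pair of Gimap genes over 27 libraries, on log2(TPM + 1) after subtracting group means. *Gimap4*, *Gimap6*, *Gimap7* and *Gimap9* form a block with r from 0.73 to 0.86, and the *Gimap1* row is near 0 except with *Gimap3* (0.55).

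The same members moved with the share of a library taken by the 10 most abundant features. That share had a median of 65.0% in splenic IgG2a, 58.2% in splenic αPD1 + αGITR, 58.4% in GBM IgG2a and 47.1% in GBM αPD1 + αGITR libraries. With group means subtracted, its correlation with *Gimap4* was r = -0.76 (rho = -0.71, n = 27), with *Gimap6* r = -0.75, with *Gimap9* r = -0.75 and with *Gimap7* r = -0.74. With *Gimap1* it was r = 0.23. Without the 2 libraries farthest from the median the values for *Gimap4* and *Gimap7* were -0.59 and -0.59. TPM values share a fixed total, so the level of a gene and this share are not independent measures. Splenic replicates 79_b and 74_a had the lowest shares of their groups, 31.9% and 40.1%, and the highest *Gimap4*, *Gimap7*, *Gimap8* and *Gimap9* values of their groups. The GBM groups did not show this. The lowest share under IgG2a was in replicate 79_a (36.8%), which had the lowest *Gimap4* and *Gimap8* values of its group, and the lowest after αPD1 + αGITR was in replicate 70_b (40.3%), which was highest for *Gimap6* and *Gimap8* but not for *Gimap4*, *Gimap7* or *Gimap9*. With this share as a covariate, chosen after the data were seen, 0 members passed between tissues under αPD1 + αGITR. That fit called 232 of 7506 genes higher, against 1189 without the covariate. The log2 fold change of *Gimap7* was 1.40 (limma adjusted p = 0.0731), of *Gimap5* 1.46 and of *Gimap4* 1.02.

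**Figure D5:**
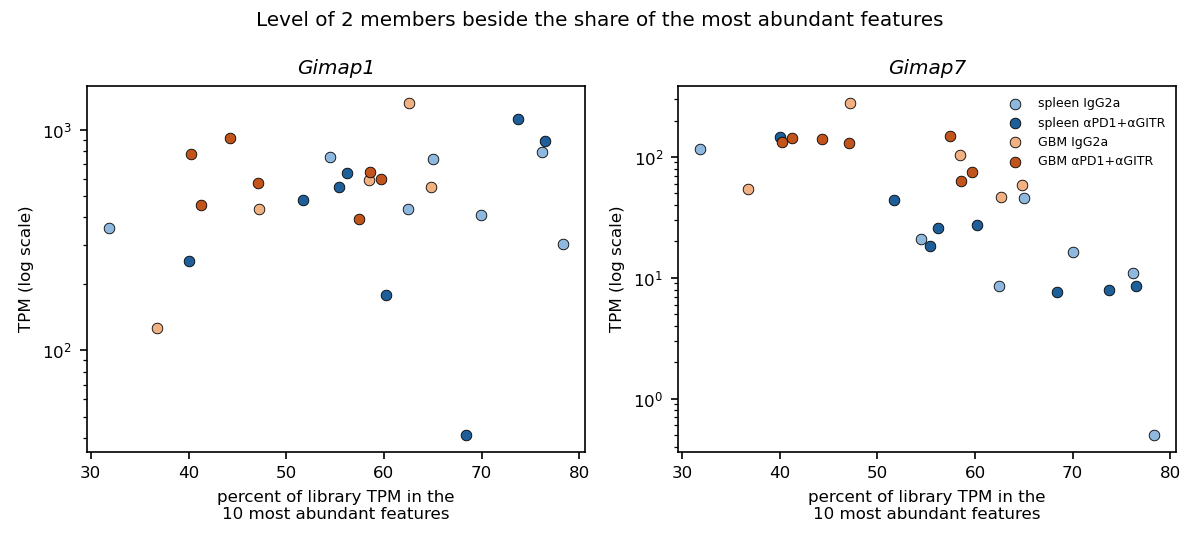
TPM of *Gimap1* and *Gimap7* on a log axis against the percent of a library's TPM in the 10 most abundant features, with 1 point per library coloured by group. *Gimap7* is lower where the share is higher (r = -0.74 with group means subtracted), and *Gimap1* shows r = 0.23.

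Genes of T cells in general were counted beside the members, since in bulk libraries a lower share of T cells and less RNA per cell cannot be told apart. Of 15 general T cell genes, 5 were higher in GBM under αPD1 + αGITR and none was lower, including *Trac* (log2 fold change 2.23, limma adjusted p = 0.00598), the adhesion receptor *Cd2* (1.90, adjusted p = 0.00816), *Cd3e* (1.57) and *Cd247* (1.44). Their median was 1.16, beside 1.28 for the members and 0.95 for all genes. Of 11 Treg genes 8 were higher, led by *Tnfrsf18* (3.67), which encodes GITR, *Tnfrsf4* (3.45), *Capg* (3.19) and *Ctla4* (2.67), and of 12 housekeeping genes 5 were higher with a median of 1.35. Of all 7506 genes tested under αPD1 + αGITR, 15.8% were called higher and 1.61% lower. Under IgG2a no gene of these lists passed, where 0.488% of 7380 genes were called higher. Their medians there were 0.70, 1.57 and 1.00.

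Genes of quiescence and lymphoid homing, the resting program with which the Gimap family is usually named, had negative medians between tissues. Of 20 such genes 16 were tested between tissues under IgG2a with a median log2 fold change of -2.05. Of these, 4 passed the filter on low values only through spleen, *Tcf7* and *S1pr1* among them, which fixes their direction in part, and the other 12 had a median of -1.69. The test was passed by 1 gene, the PI3K inhibitor *Pik3ip1* (-3.91, limma adjusted p = 0.0177), where 0.0813% of 7380 genes were called lower. *Tcf7*, a transcription factor of resting T cells, had -3.53 (adjusted p = 0.0531), the homing receptor *Ccr7* -2.67 (adjusted p = 0.181) and *S1pr1*, the receptor for egress from lymphoid organs, -2.60 (adjusted p = 0.301). Under αPD1 + αGITR 15 were tested with a median of -0.80, and *Tcf7* (-2.70, limma adjusted p = 0.00685) and *Ccr7* (-2.15, adjusted p = 0.0152) were lower while *Slfn2* (1.59, adjusted p = 0.0331) was higher. *Pik3ip1* had -1.81 (limma adjusted p = 0.0705) there and *Klf3* -1.64 (adjusted p = 0.111). Of all 7506 genes in this comparison, 15.8% were called higher and 1.61% lower. *Tcf7* and *Klf3* passed the filter only through spleen, and the other 13 genes had a median of -0.38. The members and this list thus had medians of opposite sign in both tissue comparisons. No gene of this list was called in either treatment comparison, where 0 of 14 genes in GBM and 0 of 16 in spleen passed.

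Of the Bcl2 family, which sets the threshold of cell death, 9 of 12 genes were tested between tissues. Under αPD1 + αGITR the survival gene *Bcl2* was lower (log2 fold change -2.46, limma adjusted p = 0.0190), and the effector *Bak1* (2.13, adjusted p = 0.0352) and the survival gene *Bcl2a1b* (2.08, adjusted p = 0.0411) were higher, while *Bcl2a1d* had 2.00 (adjusted p = 0.0780). *Bcl2a1b* and *Bcl2a1d* are near-copies, and their values are uncertain. *Bcl2* passed the filter on low values only through spleen, and *Bak1* and *Bcl2a1d* only through GBM, the group in which each was higher. Of all 7506 genes tested under αPD1 + αGITR, 15.8% were called higher and 1.61% lower. Under IgG2a no gene of the Bcl2 family passed, and *Bcl2* had -2.99 (limma adjusted p = 0.106). Of 16 autophagy genes, chosen because *Gimap6* binds Gabarapl2, 15 were tested between tissues under αPD1 + αGITR, and none passed. Of these, 5 entered only through GBM, *Atg12* and *Gabarapl1* among them, and the 10 with a mean above 10 TPM in both groups had a median of 1.06. *Atg12* had 1.84 (limma adjusted p = 0.0650) and *Gabarap* 1.70 (adjusted p = 0.0561).

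Markers of other cells that express Gimap genes or share the tissue were summed per library. The 12 endothelial markers summed to between 8.30 and 70.9 TPM in any library and the 6 NK cell markers to at most 19.5 TPM. In GBM IgG2a libraries the endothelial marker *Cldn5* and the NK cell marker *Klra8* were listed at 0 in all 5. The 10 B cell markers had median sums of 146 and 200 TPM in the splenic groups and 124 and 253 TPM in the GBM groups, each in the order IgG2a then αPD1 + αGITR. The 10 markers of neurons and glia had medians of 12.4 and 24.1 TPM in spleen and 94.3 and 52.6 TPM in GBM. The 16 macrophage and microglia markers had medians of 222 and 289 TPM in spleen and 474 and 658 TPM in GBM, and reached 16091 TPM in GBM IgG2a replicate 79_a. This library had the lowest *Gimap1*, *Gimap3*, *Gimap4* and *Gimap8* values of its group, but not the lowest *Gimap6* or *Gimap7*. Its *Gimap5* (98.3 TPM) and *Gimap9* (25.1 TPM) were the highest of the group after tumor_369_a. Between tissues under αPD1 + αGITR the macrophage and microglia gene *C1qa* was higher (log2 fold change 2.59, limma adjusted p = 0.0381), as was *Aldoc* of 2 neuron and glia genes tested (2.43, adjusted p = 0.0327). Both passed the filter on low values only through GBM. The part of these cells in the differences was not tested beyond the fits without the macrophage-high libraries.

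The antisense *Gimap1os* had a mean of 7.31 ± 6.23 TPM (SD, n = 5) over GBM IgG2a libraries and of 18.3 ± 8.14 TPM (SD, n = 7) over GBM αPD1 + αGITR libraries. Its log2 fold change was 1.64 (standard error 0.71, limma adjusted p = 0.193, exact permutation p = 0.0227). It passed the filter on low values there only through the treated group. In spleen the means were 6.03 and 11.5 TPM, and between tissues under αPD1 + αGITR the log2 fold change was 0.82 (adjusted p = 0.253). *Gimap1os* thus did not pass in any comparison in which it was tested, and its level stayed well under that of *Gimap1*.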

How the data were processed

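Treg cells were sorted from spleens and CT2A tumors, and libraries were made by Smart-Seq2, which does not keep strand. According to the methods, the authors aligned reads to mm10 with TopHat (TopHat2 in the submitters' processing notes, which also name bcl2fastq) and computed TPM with RSEM. Versions were not given in the sources used here. The deposited values are a signal of TPM plus 1, and 1 was subtracted from each. Of 28 labelled samples 27 had a column whose name matched, and 1 column of values was not used because its name matched no label. Depth is unknown, so no counting interval can be given. The labels name no batch.

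Members and gene lists were chosen with earlier results of these data known. Groups were compared in limma 3.58.1 (R 4.3.3) on log2(TPM + 1) with a mean-variance trend, for genes whose mean TPM was above 10 in at least 1 group, with Benjamini-Hochberg adjustment over all genes tested. A gene was called at an adjusted p under 0.05. Each member also had a two-sided exact permutation test, for which the smallest possible p was 0.00126 with 5 against 7 libraries and 0.000155 with 7 against 8. The series' design says that each spleen or tumor came from a different mouse, and the tests treat each library as independent. The study's legend for the sequencing, however, gives 5 IgG2a and 7 αPD1 + αGITR animals. The labelled splenic samples number 7 and 9, and some share a label number. Whether libraries of the same number came from 1 mouse was not given in the sources used here. Each fold change is on the log2(TPM + 1) scale and understates the change of low genes. Member genes were all named, up to 4 genes per list by size of change, and the 5 genes most like the members' mean. *Slfn2* was named in addition, after its value was seen, as the only gene of its list called higher. Positions are from GENCODE M21 (GRCm38), and upstream sequences from RefSeq. Of the 8 members 8 had a RefSeq entry. The script was tested on simulated data. Alternatives were another pseudocount, filter, scaling, covariate, weighting, linear model, averaging, common fit or replicate block, and leaving out libraries. The result of 1 marker gene is not reported here.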

Additional observations from a re-analysis of the deposited data

Results flagged for a closer look

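Of 36 groups of values (the 8 members and the joint share of *Gimap1* and *Gimap3* in each of the 4 groups of libraries), 12 held a library whose gap to the next was large against the range of its group by Dixon's criterion, for which chance gives about 1 in 20 with independent and normally distributed values. TPM values are skewed and the members correlate, so that rate does not apply to this count. All 12 were in 3 libraries. GBM IgG2a replicate tumor_369_a was highest for *Gimap4* (632 TPM, others 117 to 155), *Gimap5* (424 TPM, others 41.8 to 98.3), *Gimap7* (282 TPM, others 46.7 to 103) and *Gimap9* (206 TPM, others 12.8 to 25.1). This library also had the fewest genes above 1 TPM of the series, 7702.

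Splenic IgG2a replicate 79_b was highest for *Gimap4* (278 TPM), *Gimap7* (117 TPM) and *Gimap9* (74.6 TPM), and had the lowest joint share of *Gimap1* and *Gimap3* (57.2%, others 80.2% to 92.9%). Splenic αPD1 + αGITR replicate 74_a was highest for *Gimap4* (303 TPM), *Gimap7* (146 TPM), *Gimap8* (31.0 TPM) and *Gimap9* (58.6 TPM). These splenic libraries had the lowest share of TPM in the 10 most abundant features in their groups, 31.9% and 40.1%. The part of that share in these values was not tested.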

How the results depend on the processing

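Between tissues under αPD1 + αGITR, where 3 members were called, the count was 1 with TMM-type factors, quantile normalization, removal of the 10 most abundant features, the number of genes as covariate, or all 4 groups in one fit. In those fits 262 to 731 genes were higher. The count was 5 with library weights, which called 1981 of 7506 genes higher. It was 0 without a filter on low values (244 of 42667 genes higher) or with libraries of the same label number averaged (244 of 7458). In the reported fit 1189 of 7506 genes were higher. Of the alternatives added after seeing the data, the share of the 10 most abundant features as covariate gave 0 (232 of 7506 genes higher). Leaving out the libraries above 1000 TPM of macrophage markers gave 1 (347 of 7514). Leaving out 1 library at a time gave 1 to 4, where 549 to 1796 genes were higher. The cause of these shifts was not tested. *Gimap7* was called in 26 of 30 alternatives, *Gimap4* in 12 and *Gimap5* in 10. In the other comparisons no alternative called a member. Values of the members changed sign in 16 of 214 cases between tissues under IgG2a, 5 of 240 under αPD1 + αGITR (none of them *Gimap4*, *Gimap5* or *Gimap7*), 20 of 208 for treatment in GBM, 17 of 222 in spleen and 39 of 319 for the interaction. Over 9 pairs of splenic and GBM libraries with the same replicate name, the deviations correlated at r = -0.15 to 0.158, with 1 pair over 0.1. Only 1 splenic library was most like its own partner. With so few pairs this check cannot decide whether the names pair the libraries. With the replicate name as a block, 0 members were called in either tissue comparison. That fit called 0 of 7380 genes under IgG2a and 1 of 7506 under αPD1 + αGITR. Only names present in both tissues inform it, so few libraries bear on the difference. Depth is unknown, so its limit on low members such as *Gimap8* could not be given.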

Other observations

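Single members differed in the gene most like them, again after subtracting group means over 27 libraries and among 8679 genes. *Gimap6* was most like *Il2rg*, the common cytokine receptor chain (r = 0.94), *Gimap4* like *AW112010* (0.93), *Gimap7* like *Fxyd5* (0.89), *Gimap3* like *Foxp3* (0.89) and *Gimap5* like *Hcfc1r1* (0.88). *Gimap9* was most like *Ptprc*, which encodes CD45 (0.87), *Gimap8* like *Gm34006* (0.87) and *Gimap1* like the integrin chain *Itgb7* (0.82). These genes were the highest of many compared, and the correlations are given as a description.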
